A study of Mus musculus with 18 samples.

Results

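The Myc and Max network is a family of transcription factors that compete for a shared partner, and the genes described here are its members Myc, Max, Mxd1, Mxd3, Mxd4, Mxi1, Mnt, Mga and Mlx. They were taken by gene symbol, with earlier results of these data known, and all 9 were found among the 23418 genes of the deposited table. All 9 also passed the filter on low values, as did 11238 genes in all. Levels are RPKM, reads scaled by gene length and by the reads counted in the library, and the filter asked for 1 RPKM or more in 3 or more of the 18 libraries.

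PolyA RNA was sequenced from C57BL/6 mouse leukemia cells transformed with one of 3 MLL fusions, MLL-AF9, MLL-AF6 or MLL-AF1p. MLL is a histone methyltransferase that loses its catalytic part in these fusions and reaches its target genes through the protein menin. The 6 groups, each of 3 libraries, were MLL-AF9 cells with MI-2-2 and with DMSO, MLL-AF6 cells with MI-2-2 and with DMSO, and MLL-AF1p cells with MI-2-2 and with DMSO. MI-2-2, a small molecule that blocks the binding of menin to MLL, was given at 6 µM for 6 days in DMSO at 0.25%, and the control cultures received DMSO alone. Medium and compound were renewed on day 3, when viable cells were set back to the starting density. Every group carries an MLL fusion, so no untransformed cells are among them. The labels give neither clones nor donor animals and do not say whether the libraries of a group came from separate cultures, so the p-values reflect spread among these libraries alone, and that spread may be technical.

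MYC binds DNA only as a heterodimer with MAX, at the E-box CACGTG and related sites, and the pair recruits coactivators to genes of growth and biosynthesis. MXD1, MXI1, MXD3, MXD4, MNT and MGA also pair with MAX and bind the same sites. The MXD proteins, MXI1 and MNT bring the SIN3 and histone deacetylase corepressor, and MGA belongs to a Polycomb complex. MLX joins the same network from another side, as the partner of the glucose-responsive proteins MLXIP and MLXIPL and of some MXD proteins and MNT. In myeloid cells MYC is known to keep progenitors dividing, and MXD1 is known to appear as granulocytes and monocytes mature.

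The promoters of 5 members are shown, chosen among genes with large changes or responses that differed between constructs. Mga, whose response also differed, is not shown. Some of the 5 also hold the E-box through which the network itself binds. The sequences are RefSeq's for GRCm38.p6, 300 bases each from 250 bases before to 50 bases after the start site, on the strand of the gene, and capitals mark CACGTG. Of the 9 members 8 were matched in that table, with 10 windows, and Myc was not among them.
Mxd1, chr6:86669110-86669409, minus strand: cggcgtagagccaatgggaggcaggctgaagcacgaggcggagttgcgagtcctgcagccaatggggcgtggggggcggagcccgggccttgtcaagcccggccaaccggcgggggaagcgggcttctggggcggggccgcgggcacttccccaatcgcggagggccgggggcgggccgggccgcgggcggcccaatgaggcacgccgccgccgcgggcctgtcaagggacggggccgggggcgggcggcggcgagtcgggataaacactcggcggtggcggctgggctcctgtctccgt
Mxd3, chr13:55329682-55329981, minus strand: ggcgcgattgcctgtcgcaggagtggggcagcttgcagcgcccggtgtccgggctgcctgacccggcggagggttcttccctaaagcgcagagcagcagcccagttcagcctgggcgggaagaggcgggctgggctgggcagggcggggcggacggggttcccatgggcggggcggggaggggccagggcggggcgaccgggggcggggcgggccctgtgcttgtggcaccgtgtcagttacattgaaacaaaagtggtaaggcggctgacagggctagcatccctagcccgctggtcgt
Mxd4, chr5:34187661-34187960, minus strand: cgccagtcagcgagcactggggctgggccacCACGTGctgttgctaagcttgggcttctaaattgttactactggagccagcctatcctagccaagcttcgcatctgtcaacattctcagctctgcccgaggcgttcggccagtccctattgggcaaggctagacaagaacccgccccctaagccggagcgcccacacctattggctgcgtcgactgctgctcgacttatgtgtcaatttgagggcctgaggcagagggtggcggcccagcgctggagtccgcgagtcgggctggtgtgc
Max, chr12:76962199-76962498, minus strand: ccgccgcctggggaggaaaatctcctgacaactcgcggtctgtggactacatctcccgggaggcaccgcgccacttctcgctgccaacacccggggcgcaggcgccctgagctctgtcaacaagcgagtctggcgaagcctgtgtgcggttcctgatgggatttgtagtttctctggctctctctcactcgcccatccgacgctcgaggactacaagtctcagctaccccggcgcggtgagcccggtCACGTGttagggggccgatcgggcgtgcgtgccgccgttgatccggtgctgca
Mlx, chr11:101087040-101087339, plus strand: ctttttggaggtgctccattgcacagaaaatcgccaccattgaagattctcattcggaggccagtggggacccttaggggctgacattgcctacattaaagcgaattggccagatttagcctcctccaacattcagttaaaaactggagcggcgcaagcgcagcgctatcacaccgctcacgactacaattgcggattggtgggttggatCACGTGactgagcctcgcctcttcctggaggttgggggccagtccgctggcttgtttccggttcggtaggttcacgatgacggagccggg
CACGTG reads the same on both strands. It began 219 bases before the start site in Mxd4, 3 bases before it in Max and 40 bases before it in Mlx. Mnt, whose promoter at chr11:74830674-74830973 is not shown, held it 123 bases before the start. The windows of Mxd1, Mxd3, Mxi1 and Mga held none, which says only that these letters are not in those windows. So 4 of the 10 windows held the motif, against 7.2% of all 32851 windows of the table and 10.4% of the windows of tested genes. The promoter of Mxd1 was 76.7% G and C and that of Mlx 55.0%.

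Counted reads ran between 21180926 and 29063822 for MLL-AF9 libraries, between 21965945 and 30671635 for MLL-AF6 libraries and between 48883357 and 56304997 for MLL-AF1p libraries. Each member had between 145 and 11836 reads in a library, the lowest for Mxd3 and the highest for Myc. Markers of maturing myeloid cells moved with the treatment. They are given as sums, most of which a few genes carry, and counts of single genes follow below. In MLL-AF9 cells with MI-2-2, Lyz2 had 3560 RPKM, S100a8 12800 and S100a9 11700. Among progenitor markers Myb had 67.5 and Hoxa9 38 RPKM in MLL-AF9 cells with DMSO. Summed over 10 genes, monocyte markers stood at 3760 to 4920 RPKM with MI-2-2 and 587 to 1940 with DMSO in MLL-AF9 cells, 8940 to 12800 and 2000 to 4090 in MLL-AF6 cells, and 4090 to 4530 and 681 to 799 in MLL-AF1p cells. Neutrophil markers, 9 genes, stood at 24700 to 28800 with MI-2-2 and 2870 to 4060 with DMSO in MLL-AF9 cells, 18700 to 20500 and 2270 to 3120 in MLL-AF6 cells, and 30800 to 35700 and 3370 to 3820 in MLL-AF1p cells. Progenitor markers, 8 genes, stood at 54.4 to 59 with MI-2-2 and 111 to 139 with DMSO in MLL-AF9 cells, 59.8 to 71.7 and 169 to 175 in MLL-AF6 cells, and 112 to 114 and 174 to 180 in MLL-AF1p cells, with Cd34 at 0 in the MLL-AF9 and MLL-AF6 DMSO libraries. Among 12 markers of other cells, Cd3e, Ms4a1, Ncr1 and the globin genes Hba-a1 and Hbb-b1 were at 0 in every group, and the 12 summed to 11.2 to 55.1 RPKM with MI-2-2 and 24.7 to 98.3 RPKM with DMSO. In bulk RNA, fewer cells of a type and less RNA per cell cannot be told apart, and the part of these marker shifts in the results for the network genes was not tested.

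With MI-2-2, Myc fell and Mxd1 rose: Myc fell in MLL-AF9 and MLL-AF6 cells, and Mxd1 more than doubled in all 3 constructs. Mxd3 also rose in all 3, whereas Mxd4, of the same family, fell in all 3. Max, the shared partner, rose in MLL-AF1p cells and moved little in the other constructs, and Mxi1 moved little in all 3. Mlx rose in MLL-AF1p cells and fell in MLL-AF9 cells, where the call ended without either of 2 libraries. Changes below are log2 differences of RPKM + 0.5, MI-2-2 minus DMSO, tested with limma over all 11238 genes with Benjamini-Hochberg adjustment and a threshold of 0.05, and folds are on the same scale. In MLL-AF9 cells 3 members rose and 3 fell, where 28.5% of all tested genes rose and 27.9% fell; with libraries centred on their medians 5 members fell there. In MLL-AF6 cells 2 rose and 3 fell, against 18% and 38.9% of tested genes. In MLL-AF1p cells 4 rose and 2 fell, against 19.1% and 26.3%, and with no filter on low values 1 fell. With 9 members, these counts say little against such shares. All treated libraries lay above all DMSO libraries for 2 members in MLL-AF9 cells, 2 in MLL-AF6 cells and 5 in MLL-AF1p cells, where 29%, 19.4% and 28.9% of tested genes did so. They lay below for 3 members in each construct, against 28.2%, 41.5% and 40.3% of tested genes. Of all tested genes 8.64% rose in all 3 constructs, as did 2 of the 9 members, and 11.4% fell in all 3, as did 1 member.

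**Figure D1:**
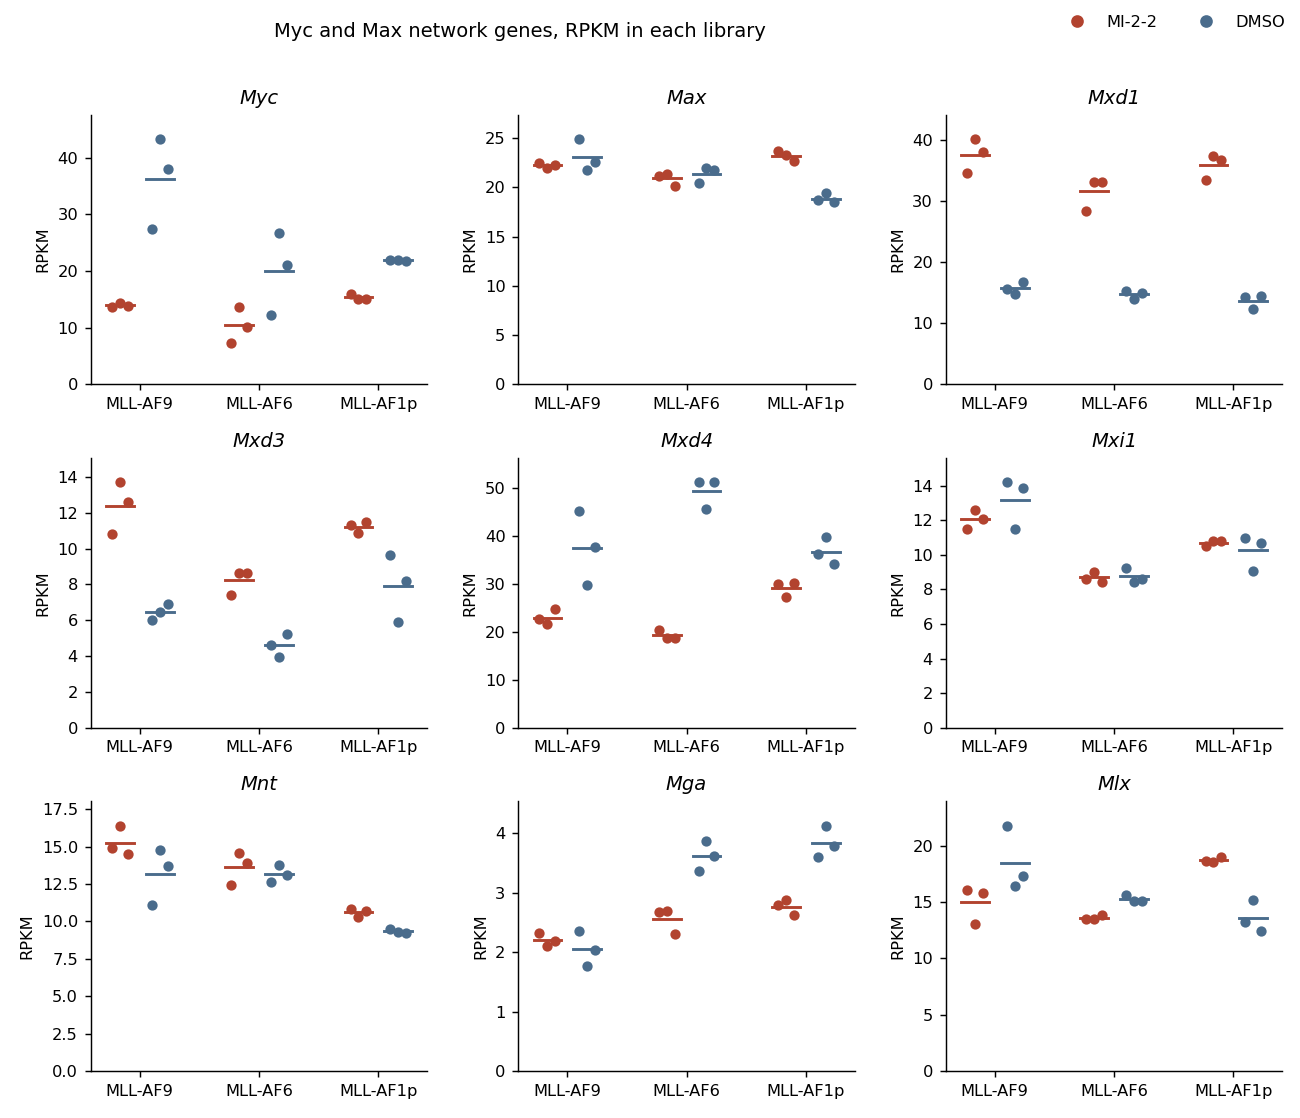
RPKM of the 9 genes in each library, one panel per gene, with the 3 MI-2-2 libraries left of the 3 DMSO libraries of each construct and bars at the group means. Mxd1 libraries with MI-2-2 sit between 28.4 and 40.1 RPKM, all above the DMSO libraries, which reach at most 16.8.

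Myc encodes the activating factor of the network. In MLL-AF9 cells Myc had 13.7, 14.3 and 13.9 RPKM with MI-2-2 and 27.4, 43.3 and 38 RPKM with DMSO. All 3 treated libraries lay below all 3 DMSO libraries, and the treated ones spread far less than the controls. The means were 14.0 ± 0.272 RPKM with MI-2-2 and 36.2 ± 8.08 RPKM with DMSO (SD, n = 3 each). Myc fell to 0.40 of its DMSO level there (log2 change -1.32, 95% confidence interval -1.82 to -0.82, adjusted p = 0.0002).

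In MLL-AF6 cells Myc had 7.29, 13.7 and 10.2 RPKM with MI-2-2 and 12.2, 26.7 and 21.1 RPKM with DMSO. One DMSO library, replicate 1, lay within the treated range, so the groups overlapped, while replicate 1 was the lowest of both groups. Myc fell there to 0.54 of its DMSO level (log2 change -0.88, interval -1.38 to -0.38, adjusted p = 0.00486), with means of 10.4 ± 3.23 RPKM with MI-2-2 and 20 ± 7.29 RPKM with DMSO (SD, n = 3 each). With the MLL-AF6 libraries fitted alone, so that their own wider spread is used, the adjusted p was 0.0581.

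MLL-AF1p cells had 15.9, 15.0 and 15.1 RPKM of Myc with MI-2-2 and 21.9, 22 and 21.7 RPKM with DMSO. The groups did not overlap and both were narrow. The log2 change of Myc was -0.50 (interval -1 to 0.01, adjusted p = 0.0984), which did not pass. That fit shares its spread with the wider MLL-AF9 and MLL-AF6 groups: with the MLL-AF1p libraries alone the adjusted p was 6.81e-05, and without MLL-AF6 DMSO replicate 1 it was 0.0344. The difference in the response of Myc between MLL-AF9 and MLL-AF1p cells was -0.82 (interval -1.53 to -0.12, adjusted p = 0.0664), so no difference between constructs passed for Myc. This difference passed with median centring (-0.95, adjusted p = 0.037), and also on leaving out MLL-AF9 DMSO replicate 1 (0.0266), MLL-AF6 MI-2-2 replicate 1 (0.048) or 2 (0.0489), or MLL-AF6 DMSO replicate 1 (0.0202) or 2 (0.0404).

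Max encodes the partner shared by MYC, the MXD proteins, MXI1, MNT and MGA. Max had 22.5, 22 and 22.3 RPKM with MI-2-2 and 24.9, 21.8 and 22.6 RPKM with DMSO in MLL-AF9 cells, with overlapping groups. In MLL-AF6 cells it had 21.2, 21.4 and 20.1 RPKM with MI-2-2 and 20.4, 22 and 21.8 RPKM with DMSO, again overlapping. The log2 changes of Max were -0.05 (interval -0.17 to 0.07, adjusted p = 0.454) in MLL-AF9 cells and -0.04 (interval -0.15 to 0.08, adjusted p = 0.599) in MLL-AF6 cells. In MLL-AF1p cells Max had 23.7, 23.3 and 22.7 RPKM with MI-2-2 and 18.7, 19.4 and 18.5 RPKM with DMSO. Here every treated library lay above every DMSO library, and Max rose 1.23-fold (log2 change 0.29, interval 0.18 to 0.41, adjusted p = 0.000497). The response of Max differed between MLL-AF9 and MLL-AF1p cells by -0.35 (adjusted p = 0.00342) and between MLL-AF6 and MLL-AF1p cells by -0.33 (adjusted p = 0.00531).

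Mxd1, also called Mad1, encodes a repressor partner of MAX. In MLL-AF9 cells Mxd1 had 34.6, 40.1 and 38 RPKM with MI-2-2 and 15.6, 14.8 and 16.8 RPKM with DMSO. In MLL-AF6 cells it had 28.4, 33.1 and 33.1 RPKM with MI-2-2 and 15.3, 13.9 and 14.9 RPKM with DMSO. In MLL-AF1p cells it had 33.4, 37.3 and 36.7 RPKM with MI-2-2 and 14.2, 12.4 and 14.5 RPKM with DMSO. The lowest treated library of any construct held more Mxd1 than the highest DMSO library of any construct. Mxd1 rose 2.35-fold in MLL-AF9 cells (log2 change 1.23, interval 1.06 to 1.41, adjusted p = 6.37e-09). It rose 2.10-fold in MLL-AF6 cells (1.07, interval 0.90 to 1.25, adjusted p = 3.06e-08) and 2.56-fold in MLL-AF1p cells (1.36, interval 1.18 to 1.53, adjusted p = 4.6e-09). Its response did not pass a test of difference between constructs: over all 3 the adjusted p was 0.128, and the pairwise differences were 0.16 for MLL-AF9 minus MLL-AF6, -0.12 for MLL-AF9 minus MLL-AF1p and -0.28 for MLL-AF6 minus MLL-AF1p. The DMSO levels of Mxd1 were also close, 15.7 ± 1.02 RPKM in MLL-AF9 cells, 14.7 ± 0.726 in MLL-AF6 cells and 13.7 ± 1.12 in MLL-AF1p cells (SD, n = 3 each).

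Mxd3, or Mad3, encodes a repressor partner of MAX known to be made in dividing cells around S phase. Mxd3 had 10.8, 13.7 and 12.6 RPKM with MI-2-2 and 6.0, 6.45 and 6.91 RPKM with DMSO in MLL-AF9 cells. MLL-AF6 cells had 7.42, 8.62 and 8.64 RPKM with MI-2-2 and 4.64, 3.93 and 5.21 RPKM with DMSO. MLL-AF1p cells had 11.3, 10.9 and 11.5 RPKM with MI-2-2 and 9.66, 5.91 and 8.17 RPKM with DMSO. Treated libraries lay above the DMSO libraries of their construct in all 3, though the MLL-AF1p DMSO libraries were scattered. Mxd3 rose 1.85-fold in MLL-AF9 cells (log2 change 0.88, interval 0.59 to 1.18, adjusted p = 6.35e-05). It rose 1.72-fold in MLL-AF6 cells (0.78, adjusted p = 0.000212) and 1.42-fold in MLL-AF1p cells (0.50, adjusted p = 0.00823). Without MLL-AF1p DMSO replicate 2 the change of Mxd3 in MLL-AF1p cells was 0.32 (adjusted p = 0.0457), and its response then differed between MLL-AF9 and MLL-AF1p cells by 0.56 (adjusted p = 0.0157) and between MLL-AF6 and MLL-AF1p cells by 0.46 (adjusted p = 0.0433), differences that did not pass over all libraries. Mxd3 overlaps Prelid1 on the other strand, and the kit does not mark strand, so reads of the pair cannot be told apart in the overlap.

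Mxd4, or Mad4, also encodes a repressor partner of MAX, and moved against Mxd1 and Mxd3. In MLL-AF9 cells Mxd4 had 22.6, 21.6 and 24.7 RPKM with MI-2-2 and 45.3, 29.7 and 37.7 RPKM with DMSO. In MLL-AF6 cells it had 20.3, 18.8 and 18.8 RPKM with MI-2-2 and 51.2, 45.7 and 51.2 RPKM with DMSO. In MLL-AF1p cells it had 29.9, 27.2 and 30.2 RPKM with MI-2-2 and 36.3, 39.8 and 34.2 RPKM with DMSO. No treated library reached a DMSO library of its construct. Mxd4 fell most in MLL-AF6 cells, to 0.40 of its DMSO level (log2 change -1.33, interval -1.57 to -1.09, adjusted p = 1.01e-07). It fell to 0.63 in MLL-AF9 cells (-0.68, interval -0.92 to -0.44, adjusted p = 0.000112) and to 0.79 in MLL-AF1p cells (-0.33, interval -0.57 to -0.09, adjusted p = 0.026). The MLL-AF1p call of Mxd4 ended if low genes were kept in the fit (adjusted p = 0.0613), and also without MI-2-2 replicate 2 (adjusted p = 0.0934), DMSO replicate 1 (0.0514) or DMSO replicate 2 (0.101). The fall in MLL-AF6 cells was larger than in MLL-AF1p cells by -1 (interval -1.34 to -0.66, adjusted p = 0.000319), and the responses in MLL-AF9 and MLL-AF6 cells differed by 0.65 (adjusted p = 0.00615). Between MLL-AF9 and MLL-AF1p cells the difference was -0.34 (adjusted p = 0.107), or -0.47 with median centring (0.0274) and -0.50 without MLL-AF9 DMSO replicate 2 (0.00559). Mxd4 overlaps the antisense gene Gm42846, with the same limit on strand.

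Mxi1, the remaining gene of the MXD family, stayed within a narrow range. Its libraries overlapped between MI-2-2 and DMSO in all 3 constructs, at 11.5 to 12.6 RPKM with MI-2-2 and 11.5 to 14.2 with DMSO in MLL-AF9 cells, 8.44 to 9.03 and 8.44 to 9.23 in MLL-AF6 cells, and 10.5 to 10.8 and 9.08 to 11 in MLL-AF1p cells. The log2 changes of Mxi1 were -0.12 (interval -0.30 to 0.05), -0.01 (-0.18 to 0.17) and 0.06 (-0.11 to 0.24) in cells with MLL-AF9, MLL-AF6 and MLL-AF1p, with adjusted p of 0.217, 0.944 and 0.565. In MLL-AF9 cells the change reached -0.22 (adjusted p = 0.0249) without DMSO replicate 2. It also passed there with median centring (-0.20, adjusted p = 0.0348) and quantile normalization (-0.20, adjusted p = 0.04). Mxi1 overlaps Gm10197 on the other strand.

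**Figure D2:**
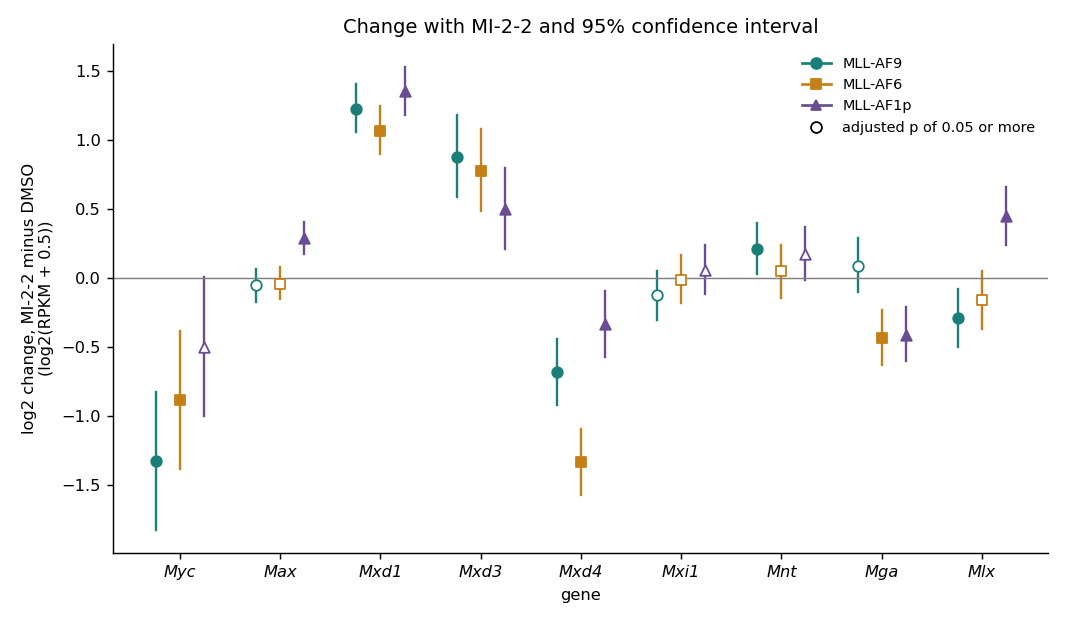
Log2 change with MI-2-2 (MI-2-2 minus DMSO, log2 of RPKM + 0.5) of each gene in the 3 constructs, with 95% confidence intervals; open symbols did not pass an adjusted p of 0.05. Mxd1 lies at 1.07 to 1.36, Mxd3 at 0.50 to 0.88 and Mxd4 at -1.33 to -0.33. Max and Mlx are above 0 in MLL-AF1p cells. In MLL-AF9 and MLL-AF6 cells Max lies near 0, at -0.05 and -0.04, and Mlx at -0.29 and -0.16.

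Mnt encodes a widely expressed repressor partner of MAX. Mnt had 14.9, 16.4 and 14.5 RPKM with MI-2-2 and 11.1, 14.8 and 13.7 RPKM with DMSO in MLL-AF9 cells, and the groups overlapped. The log2 change of Mnt there was 0.21 (interval 0.03 to 0.40, adjusted p = 0.0497), a call that ended in 15 of 18 fits that left out 1 library, where the value ran from 0.10 to 0.30. It held only without MLL-AF9 DMSO replicate 2 or without MLL-AF6 MI-2-2 replicate 1 or 2, and the smallest value came without MLL-AF9 DMSO replicate 1 (adjusted p = 0.258). In MLL-AF6 cells Mnt had 12.4 to 14.6 RPKM with MI-2-2 and 12.6 to 13.8 RPKM with DMSO (change 0.05, adjusted p = 0.658). In MLL-AF1p cells it had 10.8, 10.3 and 10.7 RPKM with MI-2-2 and 9.48, 9.3 and 9.22 RPKM with DMSO, with no overlap (change 0.18, interval -0.01 to 0.37, adjusted p = 0.106).

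Mga encodes the largest protein of the network, which carries a T-box domain as well and forms part of a Polycomb repressive complex. In MLL-AF9 cells Mga had 2.32, 2.11 and 2.18 RPKM with MI-2-2 and 2.36, 1.76 and 2.03 RPKM with DMSO (log2 change 0.09, interval -0.10 to 0.29, adjusted p = 0.415). In MLL-AF6 cells it had 2.68, 2.7 and 2.3 RPKM with MI-2-2 and 3.36, 3.88 and 3.62 RPKM with DMSO. In MLL-AF1p cells it had 2.8, 2.87 and 2.63 RPKM with MI-2-2 and 3.61, 4.13 and 3.78 RPKM with DMSO. The groups overlapped in MLL-AF9 cells and stood apart in the other two, where Mga fell to 0.74 (-0.43, adjusted p = 0.000971) and 0.75 (-0.41, adjusted p = 0.00205) of its DMSO level. The response of Mga differed between MLL-AF9 and MLL-AF6 cells by 0.52 (adjusted p = 0.00671) and between MLL-AF9 and MLL-AF1p cells by 0.50 (adjusted p = 0.00806). After quantile normalization the second difference was 0.32 (adjusted p = 0.069). DMSO Mga lay at 1.76 to 2.36 RPKM in MLL-AF9 cells and at 3.36 to 4.13 RPKM in the other constructs. With MI-2-2, Mga lay at 2.11 to 2.32 RPKM in MLL-AF9 cells, 2.3 to 2.7 in MLL-AF6 cells and 2.63 to 2.87 in MLL-AF1p cells. The responses use the same DMSO libraries, so DMSO level and response are not separate results.

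Mlx encodes the MAX-like partner of MLXIP and MLXIPL. In MLL-AF9 cells Mlx had 16.1, 13.1 and 15.8 RPKM with MI-2-2 and 21.8, 16.4 and 17.3 RPKM with DMSO. In MLL-AF6 cells it had 13.5, 13.5 and 13.9 RPKM with MI-2-2 and 15.6, 15.1 and 15.1 RPKM with DMSO. In MLL-AF1p cells it had 18.7, 18.6 and 19.0 RPKM with MI-2-2 and 13.2, 15.2 and 12.4 RPKM with DMSO. Treated libraries were thus all lower in MLL-AF9 and MLL-AF6 cells and all higher in MLL-AF1p cells. Mlx rose 1.37-fold in MLL-AF1p cells (log2 change 0.45, interval 0.24 to 0.66, adjusted p = 0.00163). It fell to 0.82 of its DMSO level in MLL-AF9 cells (-0.29, adjusted p = 0.0202), a call that ended without MI-2-2 replicate 2 (-0.20, adjusted p = 0.113) or DMSO replicate 1 (-0.17, adjusted p = 0.106). In MLL-AF6 cells the change was -0.16 (adjusted p = 0.187). The response of Mlx differed from that in MLL-AF1p cells by -0.74 in MLL-AF9 cells (adjusted p = 0.00092) and by -0.61 in MLL-AF6 cells (adjusted p = 0.00428). Mlx overlaps Psmc3ip on the other strand.

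Over the 9 genes, the response differed between constructs for Max, Mxd4, Mga and Mlx, with adjusted p of 0.00279, 0.000452, 0.00533 and 0.00109 for a test over all 3 constructs. That is 4 of 9, where 52.8% of all tested genes passed the same test. Taken by pairs, 2 members differed between MLL-AF9 and MLL-AF6 cells (33.1% of tested genes), 3 between MLL-AF9 and MLL-AF1p cells (35.1%) and 3 between MLL-AF6 and MLL-AF1p cells (31.1%). The test over all 3 constructs did not pass for Myc (0.117), Mxd1 (0.128), Mxd3 (0.227), Mxi1 (0.366) and Mnt (0.459), which does not show that these respond alike.

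One competitor was also set against the activator, as the ratio of Mxd1 to Myc RPKM within each library. This ratio was chosen after the values were seen and is therefore given without a test. It does not stand for the other competitors, of which Mxd3 rose and Mxd4 fell in every construct. In MLL-AF6 cells Mxd4 had 19.3 RPKM with MI-2-2 and 49.4 with DMSO, and Myc had 10.4 and 20. The ratio was 2.52, 2.81 and 2.73 with MI-2-2 and 0.568, 0.341 and 0.441 with DMSO in MLL-AF9 cells. It was 3.89, 2.41 and 3.23 with MI-2-2 and 1.25, 0.52 and 0.708 with DMSO in MLL-AF6 cells. In MLL-AF1p cells it was 2.1, 2.48 and 2.42 with MI-2-2 and 0.65, 0.564 and 0.667 with DMSO. Every treated library exceeded every DMSO library, and the geometric means differed 6.09-fold in MLL-AF9 cells, 4.04-fold in MLL-AF6 cells and 3.72-fold in MLL-AF1p cells. Only the change is safe to read, since the size of the ratio depends on gene lengths, as described below. On the deposited lengths, the ratio of Mxd1 to Mxd4 was 1.12 to 1.86 in treated libraries and 0.292 to 0.498 in DMSO libraries. Its geometric means differed 3.86-fold in MLL-AF9 cells, 5.47-fold in MLL-AF6 cells and 3.31-fold in MLL-AF1p cells. The deposited length of Mxd4 is 0.31 of its merged exons, so here too only the change is safe to read. Which of these repressors has more transcript per length depends on the length used.

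**Figure D3:**
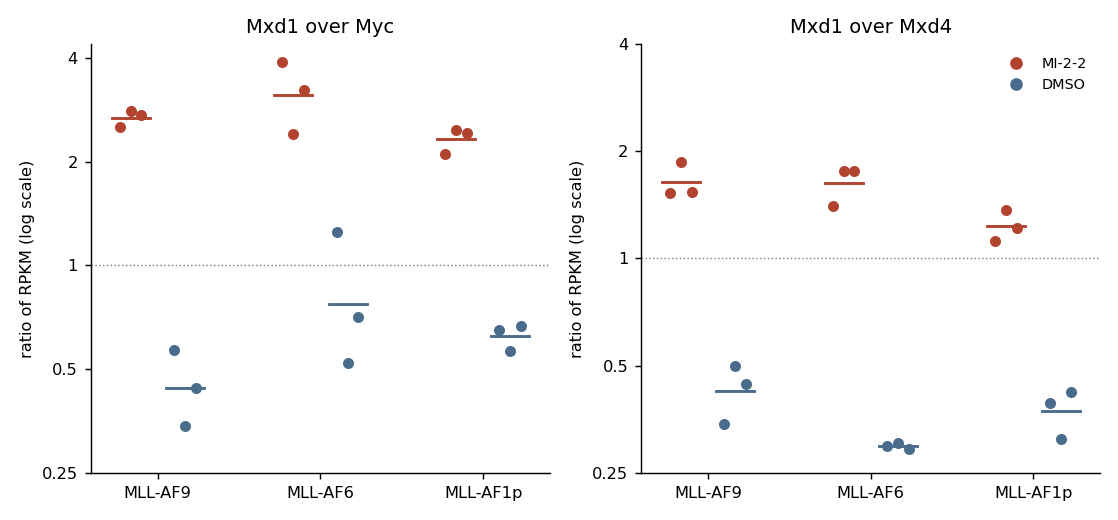
Ratio of Mxd1 to Myc (left) and of Mxd1 to Mxd4 (right) in each library, on the deposited lengths and a log axis. MI-2-2 stands left of DMSO, and bars mark geometric means. Treated libraries lie at 2.1 or above in the left panel, and DMSO libraries at 1.25 or below; in the right panel the treated libraries start at 1.12 and the DMSO libraries end at 0.498.

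In DMSO, the network genes also differed in level between the fusions, although construct and depth cannot be told apart for MLL-AF1p, whose libraries were deeper. With every library thinned to the smallest library, 21180926 reads, no DMSO call given in this paragraph was lost. Among the changes with MI-2-2, the call of Mnt in MLL-AF9 cells did end on thinning (adjusted p = 0.0549). Myc was higher in MLL-AF9 than in MLL-AF6 cells by 0.89 on the log2 scale (adjusted p = 0.00514) and higher than in MLL-AF1p cells by 0.69 (adjusted p = 0.0176). The first call for Myc ended with these groups fitted alone (adjusted p = 0.0582), and its value was 0.58 without MLL-AF6 DMSO replicate 1 (adjusted p = 0.0274). The second ended if low genes were kept in the fit (adjusted p = 0.0522), and also on leaving out MLL-AF9 DMSO replicate 2 (0.55, adjusted p = 0.0742) or replicate 3 (adjusted p = 0.0533). Mga was lower in MLL-AF9 cells than in MLL-AF6 cells by -0.70 (adjusted p = 1.21e-05) and than in MLL-AF1p cells by -0.77 (adjusted p = 2.97e-06). Mxi1 was higher in MLL-AF9 cells than in MLL-AF6 cells by 0.56 (adjusted p = 3.6e-05) and than in MLL-AF1p cells by 0.35 (adjusted p = 0.00171). Mnt was higher in MLL-AF9 than in MLL-AF1p cells by 0.47 (adjusted p = 0.000248) and higher in MLL-AF6 than in MLL-AF1p cells by 0.47 (adjusted p = 0.000406). Mxd4 was higher in MLL-AF6 cells than in MLL-AF1p cells by 0.42 (adjusted p = 0.00601), and lower in MLL-AF9 than in MLL-AF6 cells by -0.41 (adjusted p = 0.00665), which was -0.25 without MLL-AF9 DMSO replicate 2 (adjusted p = 0.0306) and did not pass with the groups fitted alone (adjusted p = 0.084). Mxd3 was lower in MLL-AF6 than in MLL-AF1p cells by -0.71 (adjusted p = 0.000664). Max was higher in MLL-AF9 than in MLL-AF1p cells by 0.28 (adjusted p = 0.000365). It was also higher in MLL-AF6 than in MLL-AF1p cells by 0.18 (adjusted p = 0.0137). That call ended with these groups fitted alone (adjusted p = 0.0508) or without DMSO replicate 3 of either. Mlx was higher in MLL-AF9 than in MLL-AF1p cells by 0.42 (adjusted p = 0.00148). It was also higher than in MLL-AF6 cells by 0.26 (adjusted p = 0.0359), a call that ended in 4 of 18 fits that left out 1 library. Mxd3 was higher in MLL-AF9 than in MLL-AF6 cells by 0.46 (adjusted p = 0.0121, or 0.0584 without MLL-AF6 DMSO replicate 2). Mxi1 was lower in MLL-AF6 than in MLL-AF1p cells by -0.21 (adjusted p = 0.0397), a call that ended in 8 of the 18 fits. In all, 6 members passed between MLL-AF9 and MLL-AF6 cells, where 53.6% of tested genes did, 6 between MLL-AF9 and MLL-AF1p cells (65.1%) and 5 between MLL-AF6 and MLL-AF1p cells (52.5%). With the groups compared fitted alone, the first and the last of these counts were 3. Of the 17 DMSO calls, 10 passed under every alternative. Mxd1 passed in none of the 3 comparisons, but its difference between MLL-AF9 and MLL-AF1p cells (0.19, adjusted p = 0.0542) lies near the threshold. It passed with median centring (0.28, adjusted p = 0.00541), quantile normalization (0.26, adjusted p = 0.0123) and thinning (0.23, adjusted p = 0.0361), and also on leaving out MLL-AF9 DMSO replicate 2, MLL-AF6 MI-2-2 replicate 1 or MLL-AF1p DMSO replicate 3. These comparisons share groups with one another and with those of the treatment.

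Comparing levels between genes needs their lengths, and the deposited lengths are not alike in kind. The deposited length of Myc was 9602 bases, 3.92 times the merged length of its exons in GENCODE M21, and the ratio was 2.04 for Max, 2.26 for Mxi1, 1.96 for Mga, 2.78 for Mlx and 0.31 for Mxd4. Mxd1, Mxd3 and Mnt had ratios near 1, and the short length of Mxd4 was left as deposited. A length that is too long lowers the RPKM of that gene in every library alike, which leaves the ratio of RPKM between groups as it is and moves the changes given here only through the added 0.5. With the capped length the change of Mga in MLL-AF6 cells was -0.46, and Mnt in MLL-AF9 cells no longer passed (adjusted p = 0.052). On the deposited lengths, Mxd1 had the highest RPKM of the 9 genes in all 3 MI-2-2 groups, with means of 37.5 ± 2.77 for MLL-AF9, 31.5 ± 2.72 for MLL-AF6 and 35.8 ± 2.07 for MLL-AF1p cells (SD, n = 3 each). Mxd4 had the highest in all 3 DMSO groups, at 37.5 ± 7.8, 49.4 ± 3.18 and 36.8 ± 2.8 RPKM in the same order of constructs, and in MLL-AF9 cells its libraries overlapped those of Myc at 36.2 ± 8.08. Mga was the lowest in every group, at 2.05 to 3.84 RPKM. Between these ends, neighbours in the order that are joined by a slash had overlapping libraries. In MLL-AF9 cells with MI-2-2 the order below Mxd1 was Mxd4/Max, Mnt/Mlx/Myc, Mxd3/Mxi1 and Mga, and with DMSO it was Mxd4/Myc, Max, Mlx/Mxd1, Mxi1/Mnt, Mxd3 and Mga. In MLL-AF1p cells with MI-2-2 it was Mxd1, Mxd4, Max, Mlx, Myc, Mxd3, Mxi1/Mnt and Mga, and with DMSO it was Mxd4, Myc, Max, Mxd1/Mlx, Mxi1/Mnt/Mxd3 and Mga. In MLL-AF6 cells the wide spread of Myc made it overlap Mnt and Mxi1 with MI-2-2 and Max and Mlx with DMSO. So Myc lay below Max in MLL-AF9 cells with MI-2-2 and above it with DMSO, and likewise in MLL-AF1p cells, on the deposited lengths.

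With lengths held to the merged exons where the deposited ones were longer, a choice made after seeing the data, Myc was the highest in 5 of the 6 groups. It then stood at 54.8 ± 1.07 RPKM with MI-2-2 and 142 ± 31.7 with DMSO in MLL-AF9 cells, and at 60.3 ± 1.93 and 85.8 ± 0.696 in MLL-AF1p cells (SD, n = 3 each). In MLL-AF6 cells Myc, at 40.9 ± 12.7 RPKM with MI-2-2, overlapped Max at 42.6 and Mlx at 37.9, and at 78.5 ± 28.6 with DMSO it overlapped Mxd4. On that scale the ratio of Mxd1 to Myc stayed below 1 in every library, at 0.535 to 0.992 with MI-2-2 and 0.087 to 0.318 with DMSO, so which of the pair has more transcript per length turns on the length used.

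**Figure D4:**
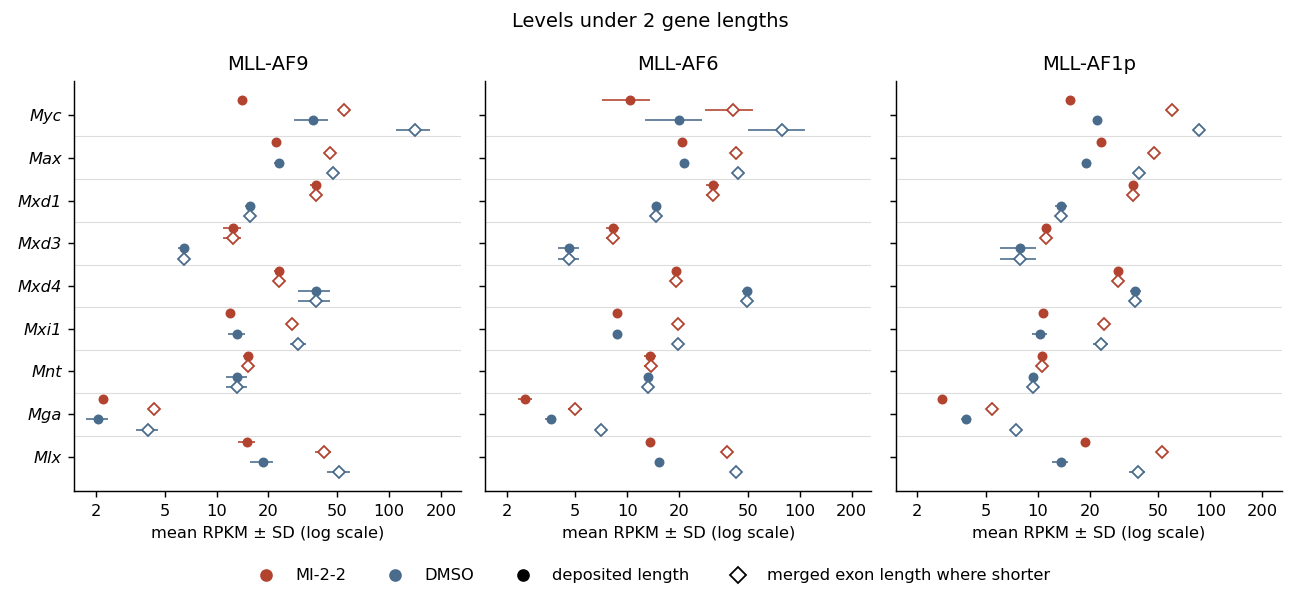
Mean RPKM ± SD (n = 3) of each gene on a log axis, in the 3 constructs, with filled circles for the deposited length and open diamonds for the merged exon length where that is shorter. Myc moves to the right in each panel, to 142 with DMSO in MLL-AF9 cells, while Mxd1 does not visibly move.

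The genes most like each of the members that moved were taken by the root mean square difference of their centred log2 levels over the 6 group means, for members that spanned at least 1 on the log2 scale, as a description. For Myc, which spanned 1.77, they were Rpl13a (0.072), Tgm3 (0.082) and Pcsk4 (0.089), and Rpl13a is a ribosomal protein gene with processed copies that can share its reads. Ak8 (0.075), Map3k9 (0.097) and L1cam (0.168) were nearest to Mxd1, which spanned 1.42. Mreg (0.103), Ezr (0.135) and Plekhh3 (0.146) were nearest to Mxd3, which spanned 1.34. Top3b (0.039), Rab44 (0.055) and Lrrk1 (0.068) were nearest to Mxd4, which spanned 1.33. The other members spanned 0.29 for Max to 0.77 for Mga, too little for such a comparison. Genes known only by a predicted or clone name, and ribosomal protein pseudogenes, were passed over in this search.

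Among relatives of the members, Mycn was listed at 0 in every library and Mycl1 did not pass the filter. Mlxipl, whose protein pairs with that of Mlx, fell to 1.67 RPKM with MI-2-2, against 6.42 RPKM with DMSO, in MLL-AF9 cells (log2 change -1.65, adjusted p = 6.28e-08), and had 0.22 and 0.588 RPKM in MLL-AF6 cells (-0.59, adjusted p = 0.00169), a level so low that the pseudocount shrinks the change (-1.10 with a pseudocount of 0.1). Its level in MLL-AF1p cells was 0.618 RPKM with MI-2-2 and 0.887 RPKM with DMSO (adjusted p = 0.0751). Mlxip, the other partner of Mlx, had changes of 0.22 in MLL-AF9 cells and -0.22 in MLL-AF6 cells, and both calls ended when libraries were centred on their medians (adjusted p = 0.114 and 0.132). Txnip, a target of the MLX pairs, fell in all 3 constructs, by 0.99, 1.19 and 1.17 on the log2 scale, taking MLL-AF9 cells first, then MLL-AF6, then MLL-AF1p (adjusted p = 0.000208, 3.91e-05 and 6.99e-05). Arrdc4, the only other gene on that list, fell in MLL-AF9 cells (-0.48) and MLL-AF1p cells (-0.80), and its change in MLL-AF6 cells was -0.15.

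The proteins that the members recruit were described from lists, each read against the median change of all tested genes, which was 0.00 in MLL-AF9 cells, -0.16 in MLL-AF6 cells and -0.06 in MLL-AF1p cells. The background for each count is the share of all tested genes that rose and fell, 28.5% and 27.9% in MLL-AF9 cells, 18% and 38.9% in MLL-AF6 cells, and 19.1% and 26.3% in MLL-AF1p cells. Of 14 tested genes of the SIN3 and histone deacetylase complex, which the MXD proteins bring, none rose and 6 fell in MLL-AF9 cells (median -0.13), none rose and 10 fell in MLL-AF6 cells (-0.26), and 1 rose and 5 fell in MLL-AF1p cells (-0.15). Hdac1 fell to 135 RPKM with MI-2-2, against 198 RPKM with DMSO, in MLL-AF9 cells (-0.54, adjusted p = 2.21e-05) and to 88.5 against 140 in MLL-AF6 cells (-0.66, adjusted p = 3.18e-06). The count of 10 became 6 with median centring, and the count of 5 became 3 without MLL-AF1p DMSO replicate 2. Without MLL-AF9 DMSO replicate 1, 3 genes of the list rose in MLL-AF9 cells. Of 12 MYC cofactor genes, 1 rose and 3 fell in MLL-AF9 cells (median 0.01), none rose and 8 fell in MLL-AF6 cells (-0.25), and 3 rose and none fell in MLL-AF1p cells (0.12). The count of 8 became 5 with median centring, and the count of 3 that rose became 5 without MLL-AF9 DMSO replicate 2. The helicase gene Ruvbl1 had 22.1 RPKM with MI-2-2 and 36.2 with DMSO in MLL-AF9 cells (-0.68, adjusted p = 0.0015) and 19.5 and 36 in MLL-AF6 cells (-0.86, adjusted p = 0.000216).

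Partners of Mga in the Polycomb complex were mixed: of 9 tested, 2 rose and 3 fell in MLL-AF9 cells (median -0.14), 1 rose and 5 fell in MLL-AF6 cells (-0.23), and 3 rose and 3 fell in MLL-AF1p cells (-0.17). Rybp rose in all 3, to 22.7 RPKM with MI-2-2, against 12.1 with DMSO, in MLL-AF9 cells, to 12.6 against 9.93 in MLL-AF6 cells (adjusted p = 0.022, or 0.0664 without MI-2-2 replicate 3) and to 18.1 against 13.1 in MLL-AF1p cells. Pcgf6 fell in MLL-AF9 cells (-0.69) and MLL-AF6 cells (-0.77). The second gene that rose in MLL-AF9 cells, Tfdp1, lost its call without any 1 of 5 MLL-AF9 libraries. Among 12 genes that act on the MYC protein's turnover, 3 rose and 1 fell in MLL-AF9 cells (median 0.00), 1 rose and 4 fell in MLL-AF6 cells (-0.07), and 1 rose and 2 fell in MLL-AF1p cells (-0.01). Pim1, a kinase that phosphorylates MYC, fell by close to a log2 unit in each construct, to 241, 247 and 232 RPKM with MI-2-2, against 458, 498 and 475 RPKM with DMSO (-0.91, -1.01 and -1.02, adjusted p = 3.37e-05, 1.35e-05 and 2.1e-05). The small counts of this list moved between 1 and 3 for either direction in MLL-AF9 cells and between 0 and 3 for genes that rose in MLL-AF1p cells when 1 library was left out.

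Genes that MYC is known to activate did not move as one block. Of 24 tested genes of ribosome assembly in the nucleolus, none rose in MLL-AF9 or MLL-AF6 cells, while 20 and 21 fell (medians -0.46 and -0.70). In MLL-AF1p cells 6 of the 24 rose and 1 fell (median 0.05). The count of 20 was 13 without MLL-AF9 DMSO replicate 2, and the MLL-AF1p libraries fitted alone gave 10 that rose and 4 that fell. Bop1, a ribosome assembly factor, had 38.7 RPKM with MI-2-2 and 53.2 with DMSO in MLL-AF9 cells, 28.7 and 47.8 in MLL-AF6 cells, and 40.4 and 26.1 in MLL-AF1p cells, with changes of -0.44, -0.72 and 0.62. Of 15 genes of nucleotide and polyamine synthesis, 2 rose and 8 fell in MLL-AF9 cells (median -0.50), none rose and 12 fell in MLL-AF6 cells (-0.57), and 2 rose and 2 fell in MLL-AF1p cells (-0.14). Shmt2 had 33.7 RPKM with MI-2-2 and 76 with DMSO in MLL-AF9 cells (-1.10, adjusted p = 0.00022). The count of 8 was 5 without MLL-AF9 MI-2-2 replicate 3 and also 5 with no filter on low values.

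Of 10 cell cycle genes listed as MYC targets, 7 rose and none fell in MLL-AF9 cells (median 0.47), 2 rose and none fell in MLL-AF6 cells (0.12), and 3 rose and none fell in MLL-AF1p cells (0.33). Ccne1, which encodes cyclin E1, rose in all 3, by 0.42, 0.42 and 0.38, taking MLL-AF9 cells first, then MLL-AF6, then MLL-AF1p, and E2f2 rose in MLL-AF9 cells (0.79) and MLL-AF6 cells (1.06). Without MLL-AF9 DMSO replicate 1, 2 genes of the list fell in MLL-AF9 cells and 5 rose in MLL-AF1p cells. Of 16 growth and metabolism genes, 1 rose and 5 fell in MLL-AF9 cells (median -0.14), 1 rose and 5 fell in MLL-AF6 cells (-0.26), and 2 rose and 5 fell in MLL-AF1p cells (-0.06). The share of this list that fell is near that of all tested genes in each construct, and the 2 that rose in MLL-AF1p cells became 0 or 1 in 14 of 18 fits that left out 1 library. Pgk1, a glycolytic enzyme gene, had 560 RPKM with MI-2-2 and 1470 with DMSO in MLL-AF1p cells (-1.38, adjusted p = 0.000565). The count of 5 in MLL-AF6 cells was 10 without MLL-AF6 DMSO replicate 1, and that in MLL-AF1p cells was 3 without MI-2-2 replicate 1 or 2 or DMSO replicate 1 or 3. Of 10 genes that MYC is known to repress, 2 rose and 3 fell in MLL-AF9 cells (median -0.05), 4 rose and 4 fell in MLL-AF6 cells (-0.13), and 2 rose and 4 fell in MLL-AF1p cells (-0.41). Klf6 rose in all 3 constructs (1.05, 1.18 and 0.51) and Ndrg2 fell in all 3 (-2.88, -1.59 and -1.25), with the MLL-AF1p call of Ndrg2 ending without MI-2-2 replicate 2 or 3 or DMSO replicate 1 or 3.

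**Figure D5:**
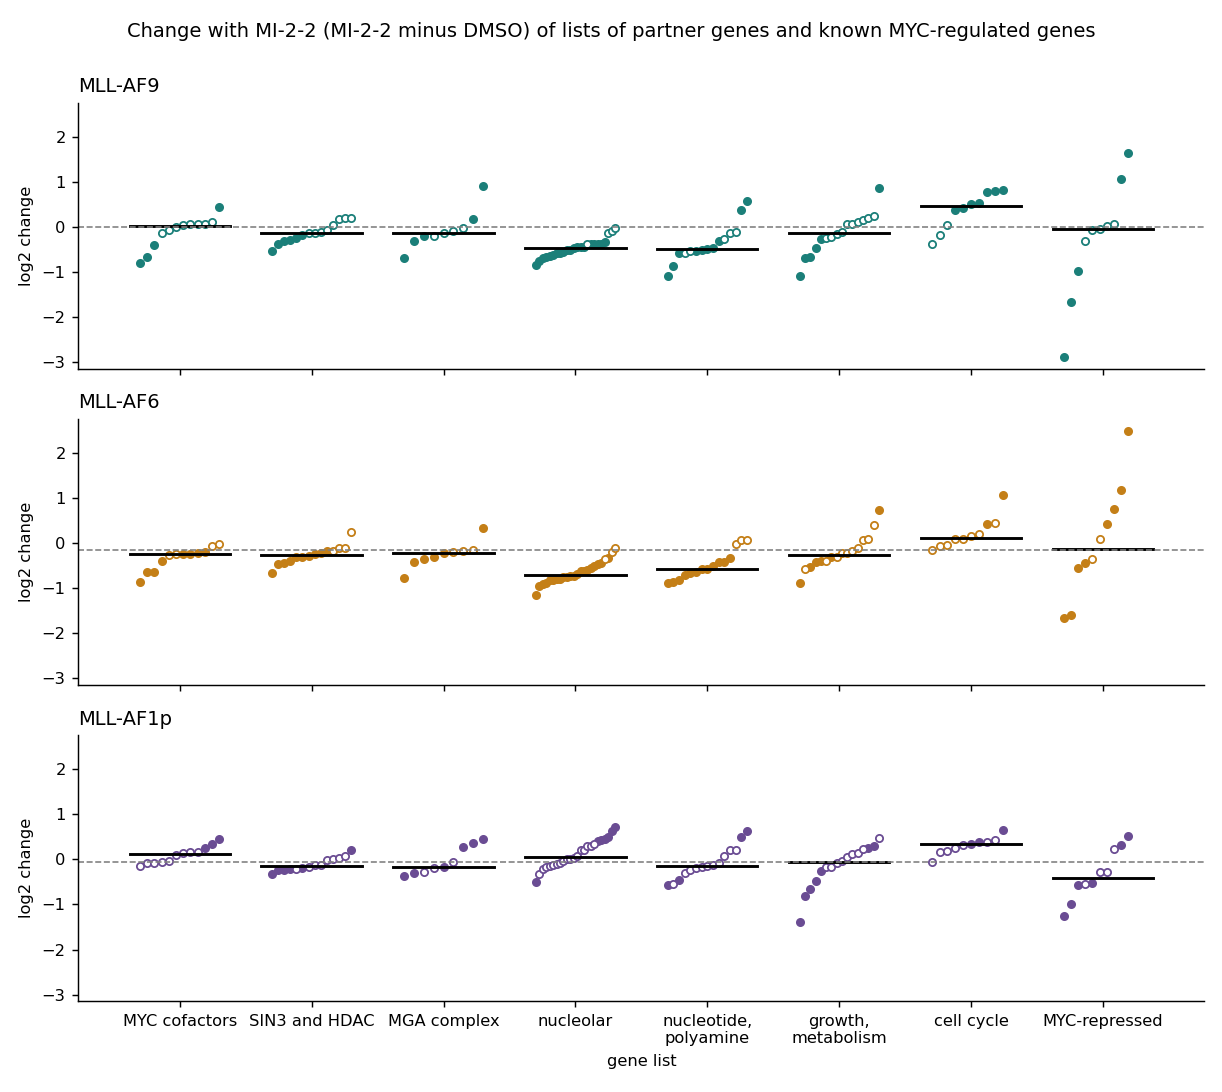
Log2 change with MI-2-2 (MI-2-2 minus DMSO) of every tested gene of 8 lists, one panel per construct, with a bar at each list's median, a dashed line at the median of all tested genes and open points for genes that did not pass. The nucleolar list has its median at -0.46 for MLL-AF9 cells, at -0.70 for MLL-AF6 cells and at 0.05 for MLL-AF1p cells.

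Markers of maturing and progenitor cells stand beside these counts. Of 9 tested monocyte genes, 8 rose in MLL-AF9 cells, 7 in MLL-AF6 cells and 9 in MLL-AF1p cells and none fell, and of 9 neutrophil genes 9, 9 and 7 rose in the same constructs. Of 5 tested progenitor genes 4 fell in each construct, while Kit, a progenitor receptor gene, rose in MLL-AF9 cells (0.36, adjusted p = 0.0195) and MLL-AF6 cells (0.38, adjusted p = 0.0158). The first call ended without MLL-AF9 MI-2-2 replicate 2 or 3 or DMSO replicate 1 or 2, and the second without MLL-AF6 MI-2-2 replicate 1 or 2. Of 2 tested genes of other cell types 2, 2 and 1 fell. Ctss, a lysosomal protease of macrophages, had 142 RPKM with MI-2-2 and 1.58 with DMSO in MLL-AF9 cells. Meis1, a progenitor gene bound by MLL fusions, had 0.342 RPKM with MI-2-2 and 5.76 with DMSO there. The rise of Mxd1 and the fall of Myc thus stand beside higher monocyte and neutrophil markers and lower levels of most progenitor markers, though not of Kit, in the same libraries, and what part these play in either was not tested.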

How the data were processed

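The deposited values were RPKM per gene, made by the authors and taken as deposited; the gene length stands beside them, per the file headers. Per the submitters' processing notes the tools included CASAVA 1.8.2, Bowtie2 2.0.0.7, HTSeq and edgeR, with the mouse build mm9; their roles are not given there. RNA integrity was at least 8 and the library kit does not mark strand, per the labels' protocols. Values came out as whole reads for 100.0% of entries within 0.05 of a read, which gave the depths.

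Log2(RPKM + 0.5) was fitted by limma 3.58.1 (R 4.3.3), with the 6 groups as means in a single model that left 12 residual degrees of freedom. The prior followed mean level, and Benjamini-Hochberg adjustment covered all 11238 genes that reached 1 RPKM in 3 or more libraries. The script was checked on simulated data. Changes of low genes are understated by the pseudocount. The same replicate number was not taken as a pair. Alternatives were a pseudocount of 0.1, no filter, median centring, quantile normalization, a constant prior, a replicate block, voom on recovered reads, thinning to the smallest library, groups fitted alone and each library left out; the capped gene length was chosen after seeing the data. Members and lists (15 lists, 170 of 171 genes found) were chosen with earlier results of these data known. All 9 members were named, and from each list at most 4 genes by mean absolute change. Lyz2, S100a8, Tfdp1 and Kit, and genes at 0 or not passing the filter, were named outside this rule. Figures were drawn with matplotlib 3.10.9.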

Additional observations from a re-analysis of the deposited data

Results flagged for a closer look

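The response to MI-2-2 differed between constructs, by a test of the difference itself in limma with adjustment over all genes, in 8 pairwise comparisons of 4 members. Between MLL-AF9 and MLL-AF6 cells, 33.1% of all tested genes passed, and so did Mxd4 (0.65, 95% confidence interval 0.31 to 0.99, adjusted p = 0.00615) and Mga (0.52, 0.25 to 0.80, adjusted p = 0.00671). Mxd4 thus fell less in MLL-AF9 cells, where the change of Mga was 0.09, against -0.43 in MLL-AF6 cells. Between MLL-AF9 and MLL-AF1p cells 35.1% passed, with Max (-0.35, -0.51 to -0.18, adjusted p = 0.00342), Mga (0.50, 0.22 to 0.78, adjusted p = 0.00806) and Mlx (-0.74, -1.04 to -0.44, adjusted p = 0.00092) among them. Between MLL-AF6 and MLL-AF1p cells 31.1% passed, with Max (-0.33, -0.50 to -0.16, adjusted p = 0.00531), Mxd4 (-1, -1.34 to -0.66, adjusted p = 0.000319) and Mlx (-0.61, -0.91 to -0.31, adjusted p = 0.00428). Max and Mlx each rose in MLL-AF1p cells, where all treated libraries lay above all DMSO libraries. Their mean DMSO levels were lowest there: Max had 18.9 RPKM, against 23.1 in MLL-AF9 and 21.4 in MLL-AF6 cells. Mlx had 13.6, against 18.5 and 15.3. With MI-2-2, Max had 23.3 RPKM in MLL-AF1p cells, against 22.2 and 20.9, and Mlx had 18.7, against 15 and 13.6. The comparisons share libraries, so they are not independent of one another. The depth of the MLL-AF1p libraries differs from that of the others and cannot be told apart from the construct, and all 8 differences passed with libraries thinned to one depth.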

How the results depend on the processing

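No value changed direction among those that were called, and 13 of the 17 called changes of members with MI-2-2 passed under every alternative; the exceptions were Mnt and Mlx in MLL-AF9 cells, Myc in MLL-AF6 cells and Mxd4 in MLL-AF1p cells. Of the 10 changes not called, 4 passed under at least one alternative: Max, with median centring, and Mxi1 in MLL-AF9 cells, and Myc and Mnt in MLL-AF1p cells. With median centring 5 members fell in MLL-AF9 cells (3 in the reported fit), and rises made up 41.2% of all calls there against 50.5%, and 41.9% against 31.6% in MLL-AF6 cells. With no filter on low values 1 member fell in MLL-AF1p cells (2 in the reported fit). With groups fitted alone, 3 members differed between MLL-AF9 and MLL-AF6 cells in DMSO (6 in the reported fit) and 3 between MLL-AF6 and MLL-AF1p cells (5 in the reported fit). With 1 library left out, 2 to 3 members rose and 2 to 4 fell in MLL-AF9 cells, 2 rose and 3 fell in MLL-AF6 cells, and 4 to 5 rose and 1 to 3 fell in MLL-AF1p cells; 4 to 5 differed in response, and 4 to 7, 5 to 7 and 3 to 5 differed in DMSO between MLL-AF9 and MLL-AF6, MLL-AF9 and MLL-AF1p, and MLL-AF6 and MLL-AF1p cells. Causes were not tested. Libraries of the same number correlated in their deviations from 0 to 0.56, over 0.1 for 5 of 9 pairs, and 11 of 18 were closest to one of their own number. Neither the labels nor every pair ties the numbers together, so they were not taken as pairs, though some may be. A replicate block gave 3 members that fell in MLL-AF1p cells, 5 that differed in response and 7 between MLL-AF9 and MLL-AF1p cells in DMSO. With it Myc passed in MLL-AF1p cells (adjusted p = 0.0349), as did its difference in response between MLL-AF9 and MLL-AF1p cells (0.0202), and Mxd1 between those constructs in DMSO (0.0411). Depth limits Mxd3 most, at 145 reads in one library.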
